A study of Mus musculus with 2 samples.

Results

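Constitutive luminal antibacterial proteins are the lysozymes, defensins, lectins and small secreted or surface-bound proteins that a gut epithelium releases onto its inner surface without needing an infection. The set described here holds 9 genes: Lyz1, Lyz2, Ang4, Defa24, Itln1, Lypd8, Zg16, Retnlb and Camp. Members were the probe sets whose platform annotation names exactly 1 of these genes, and each gene had 1 such probe set, out of 22180 genes measured. Colonic RNA came from 7-week-old male ICR mice, an outbred stock. Feed of the psyllium group contained 10% psyllium, a gel-forming fibre from seed husks, and was given for 5 days. The control group ate feed that held no psyllium. Each diet is represented by 1 array, so there is no replicate error, no test was run, and every difference is between these arrays. The labels give neither the number of mice behind an array nor the segment of colon.

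Several cell types supply these proteins in the mouse gut. Lyz1 and the alpha-defensins, which include Defa24, are classical products of Paneth cells, granular cells at the base of small intestinal crypts that a healthy colon largely lacks. Zg16, Retnlb, Itln1 and Ang4 are released by mucus-producing goblet cells, the last pair by Paneth cells also. Lypd8 sits on surface colonocytes, Lyz2 is the lysozyme of macrophages and other myeloid cells, and Camp encodes the cathelicidin precursor of neutrophils and some epithelia. Lysozymes cut the peptidoglycan of the bacterial wall, and defensins and cathelicidins disrupt bacterial membranes.

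The sequences shown are those of the lysozyme pair, because these sister genes differed in opposite directions between the diets. Lyz1 and Lyz2 both lie on chromosome 10, with 0 genes between them in the RefSeq gene table. The 250 bases before each gene's start were read from RefSeq, build GRCm38.p6, minus strand, at chr10:117292869-117293118 for Lyz1 and chr10:117282273-117282522 for Lyz2. Capitals mark the longest run the windows share, 50 bases that end at the edge of the window, next to the start site. In Lyz2 they also mark a CATAAA, the reverse complement of the caudal (CDX) motif TTTATG.
Lyz1: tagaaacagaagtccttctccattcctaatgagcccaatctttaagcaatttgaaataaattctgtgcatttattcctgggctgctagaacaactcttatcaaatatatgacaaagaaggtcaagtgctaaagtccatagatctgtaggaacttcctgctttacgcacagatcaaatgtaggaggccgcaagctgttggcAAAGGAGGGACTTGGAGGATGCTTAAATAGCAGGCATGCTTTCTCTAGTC
Lyz2: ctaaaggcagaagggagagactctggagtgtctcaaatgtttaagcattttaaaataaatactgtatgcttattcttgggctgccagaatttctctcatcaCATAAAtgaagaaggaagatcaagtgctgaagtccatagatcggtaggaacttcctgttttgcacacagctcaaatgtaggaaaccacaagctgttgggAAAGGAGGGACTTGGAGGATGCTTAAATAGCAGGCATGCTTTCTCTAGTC
In a gapped alignment of the windows 200 of 252 columns were identical (79.4%). The 50-base run occurred in 2 of 32851 RefSeq windows of this length, those of Lyz1 and Lyz2. These are reference sequences, not those of the ICR mice on the arrays.

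Motifs were searched as letters on both strands of the 250-base windows available for 6 of the 9 members (7 windows, since Lypd8 has 2 starts). The CDX motif TTTATG was in the windows of Lyz2 and Itln1, not in that of Lyz1, and in 10.8% of all windows. The STAT motif TTCNNNGAA was in that of Ang4 and in 7.02% of all windows. The AP-1 motif TGACTCA was likewise in the Ang4 window and in 4.46% of all. No member window held CTTTGA (TCF7L2, in 13.8% of all windows), TATAAA (the TATA box, in 12.4%) or the palindromic STAT6 motif with its wider spacer (in 5.85%). None of the spelled motifs overlapped another in the windows printed. These are matches of letters, not binding sites. Defa24, Retnlb and Zg16 had no window to search.

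Lyz1, the Paneth-type lysozyme, had a normalised intensity of 135 on the psyllium array and 247 on the control array. Defa24, an alpha-defensin, had 45.9 on the psyllium array and 86.7 on the control array. Lyz1 was thus 1.84-fold lower with psyllium (log2 difference, psyllium minus control, of -0.88) and Defa24 1.89-fold lower (-0.92). Itln1 and Ang4, which Paneth cells also release, differed by 0.26 and -0.0035. Lyz1 and Defa24 were the 2 of the 9 members at or past 1.5-fold, the size used for counting, and both were lower. Among the 11090 genes past the intensity filter 2.42% were at least 1.5-fold lower. The filter kept genes whose brighter array reached 69.5, the median of that quantity over all genes. A difference as low as that of Lyz1 was found in 0.748% of those genes. Defa24 passed the filter through the control array alone, where it was the brighter, so its fold is uncertain and its place in this count is no support for a difference. In these colonic RNA samples, fewer cells of a type and less RNA per cell cannot be told apart.

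Lyz2, the myeloid lysozyme, had an intensity of 501 on the psyllium array and 341 on the control array, a log2 difference of 0.56. At 1.47-fold it lay just short of the counting size, and none of the 9 members was at least 1.5-fold higher, against 4.03% of genes past the filter. It reached 1.5-fold under 4 alternatives, with differences from 0.60 to 0.83, which further quantile normalisation, centring and removal of the intensity trend gave. The differences of Lyz2 and Lyz1 were 1.43 apart on the log2 scale, and between 1.34 and 1.45 under the alternatives. Centring and the mean of probe sets cannot change this gap. Only further quantile normalisation, removal of the intensity trend and the offset could move it. For scale, the log2 differences of the brightest pair of probe sets of a gene were a median of 0.17 apart over 332 genes. The 90th percentile of this gap was 0.46, and it measures the probes and not the animals. The transcripts of this pair are close in sequence, and whether probes of either set bind both was not tested.

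The members made by goblet cells differed little. Itln1, an intelectin that binds microbial sugars, had 1743 on the psyllium array and 1455 on the control array (0.26, 1.20-fold higher). Retnlb, the resistin-like molecule RELM-beta, had 4702 on the psyllium array and 4458 on the control array (0.08). Zg16, a lectin-like protein that binds Gram-positive bacteria in mucus, had 3991 on the psyllium array and 3825 on the control array (0.06). These 3 were higher with psyllium by no more than 1.20-fold. Ang4, a ribonuclease with bactericidal activity, had 2140 on the psyllium array and 2145 on the control array, a log2 difference of -0.0035 that leaves the arrays level for this gene.

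Lypd8, the surface protein that keeps flagellated bacteria away from colonocytes, had 6319 on the psyllium array and 7051 on the control array, a difference of -0.16 (1.12-fold lower). Camp had 14.9 on the psyllium array and 10.8 on the control array. Both Camp values lay below the filter, so its difference of 0.46 carries no weight. Past the filter stood 8 members, 7 of them on both arrays, and the eighth was Defa24. The median difference over all 9 was 0.06, against -0.0025 over all 22180 genes and -0.04 over those past the filter.

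**Figure D1:**
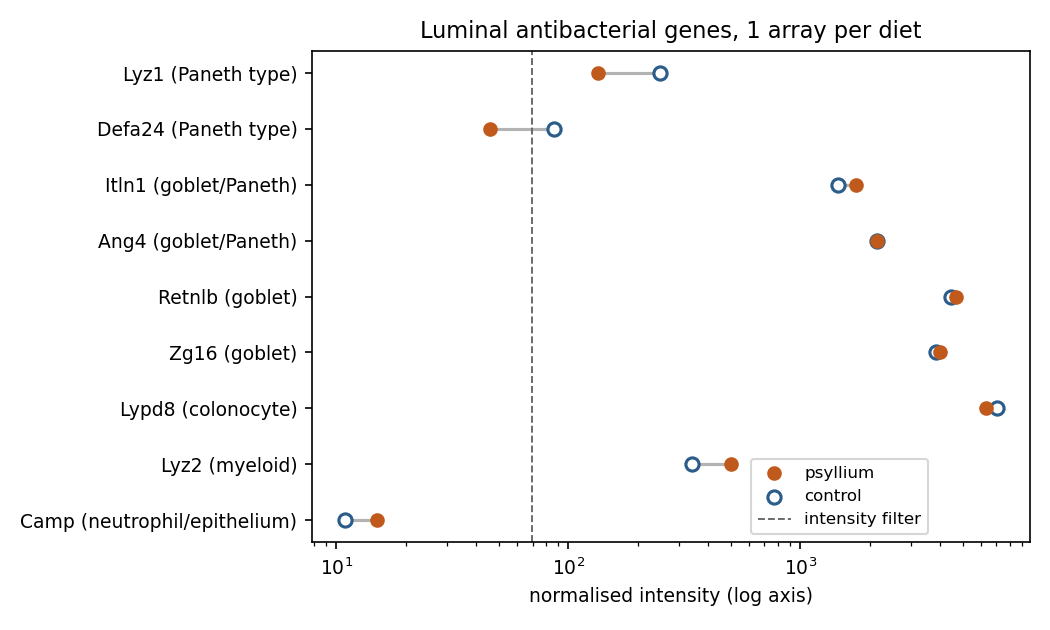
Normalised intensity (log axis) of the 9 genes on the psyllium array (filled) and the control array (open), with the intensity filter of 69.5 as a dashed line. Lyz1 and Defa24 are lower with psyllium, Lyz2 is higher at 501 against 341, and the goblet members and Lypd8 lie nearly on top of each other. Intensities of different genes come from different probes and are not comparable.

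The other alpha-defensin probe sets leaned the way Defa24 did. The annotation held 19 probe sets naming alpha-defensins only, of which a pair had identical values and was counted once, leaving 18. Of these, 16 had a negative difference, and the median was -0.29, against -0.0025 over all 22180 genes. The 18 are not independent of each other, since 8 name several alpha-defensins, often the same ones. By 1.5-fold or more, 4 were lower, 3 of them past the filter, and 0 higher. Of all genes, 2.80% were that much lower and 3.42% that much higher. Defa24 and the set shared by Defa28, Defa25 and Defa27 passed the filter through the control array alone. Their place in this count is no support for a difference. Without Defa24, 15 of 17 had a negative difference, with a median of -0.28. The direction of this family rests on the scaling: relative to the pan-epithelial genes described below, 11 of 18 were negative, 2 were lower by 1.5-fold or more, and the median was -0.01.

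Of the 10 probe sets that name a single alpha-defensin, 3 were past the filter. Besides Defa24 these were Defa34, with 115 on the psyllium array and 141 on the control array (-0.30), and Defa40, with 101 on the psyllium array and 117 on the control array (-0.21). The 7 below the filter ran from -0.45 (Defa35) to 0.40 (Defa39). The lowest difference belonged to a probe set shared by Defa23, Defa31, Defa2, Defa17 and Defa3. It had 104 on the psyllium array and 253 on the control array, 2.43-fold lower. Alpha-defensin genes are near-identical copies, so neither these values nor that of Defa24 can be assigned to a single gene with certainty. Another shared set, of Defa28, Defa25 and Defa27, had 57.4 on the psyllium array and 96.5 on the control array (1.68-fold lower). Its psyllium value was below the filter, so this fold is uncertain. Defa3, Defa2 and Defa17 shared 2 sets that differed in sign, one with 120.0 on the psyllium array and 114 on the control array (0.07) and the other with 90.5 on the psyllium array and 103 on the control array (-0.19).

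**Figure D2:**
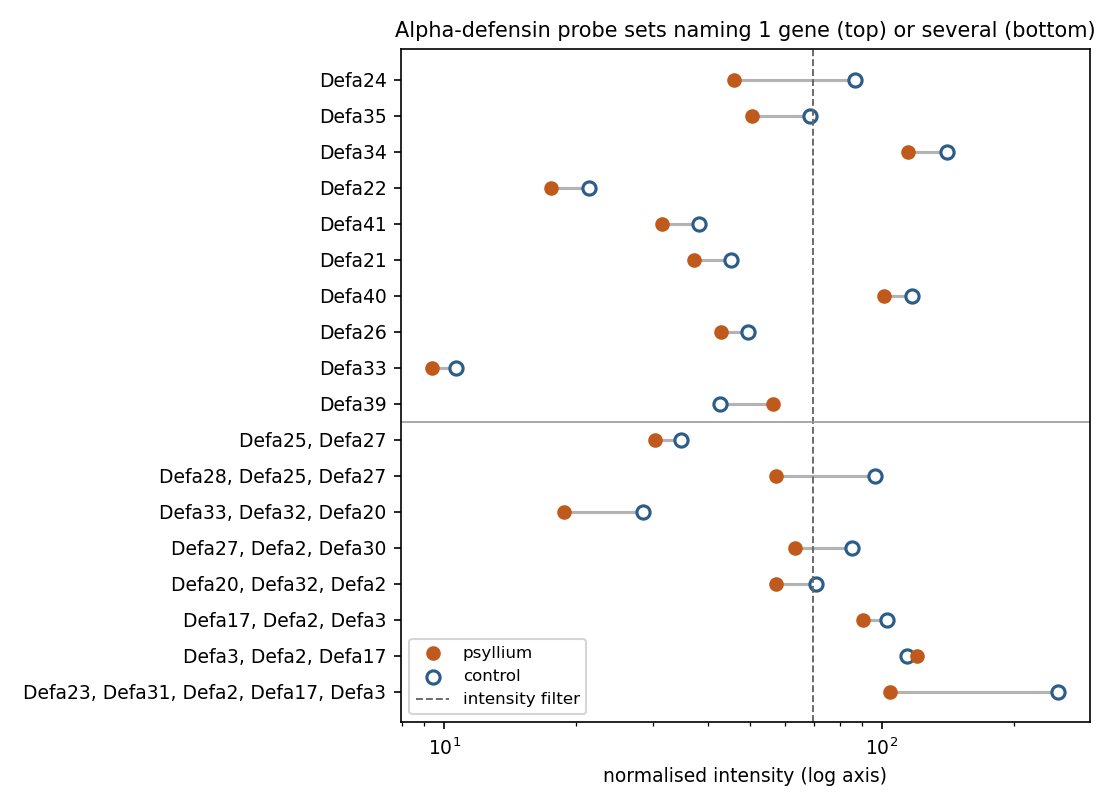
Normalised intensity (log axis) of the 18 distinct alpha-defensin probe sets on the psyllium array (filled) and the control array (open), with those naming 1 gene above the line and those naming several below it. In 16 of them the psyllium point lies to the left of the control point.

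Close relatives of the members gave little signal. Of 44 listed relatives in the lysozyme, ribonuclease, resistin-like, intelectin, Ly6/uPAR, defensin and cathelicidin families, 31 had a probe set of their own and 26 of these lay below the filter. The 5 past it were Retnla, Ly6g, Lypd3, Rnase6 and Ly6e. Retnla, a resistin-like gene of alternatively activated macrophages, had 69.9 on the psyllium array and 39.9 on the control array (1.75-fold higher, with the control value below the filter). Ly6g was 1.51-fold higher and Lypd3 differed by 0.51, whereas Rnase6 and Ly6e differed by -0.37 and -0.39. The bone marrow gene Ngp, related to the cathelicidins, lay below the filter, as Camp did. A probe set shared by Rnase4 and Ang, relatives of Ang4, had 192 on the psyllium array and 173 on the control array.

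**Figure D3:**
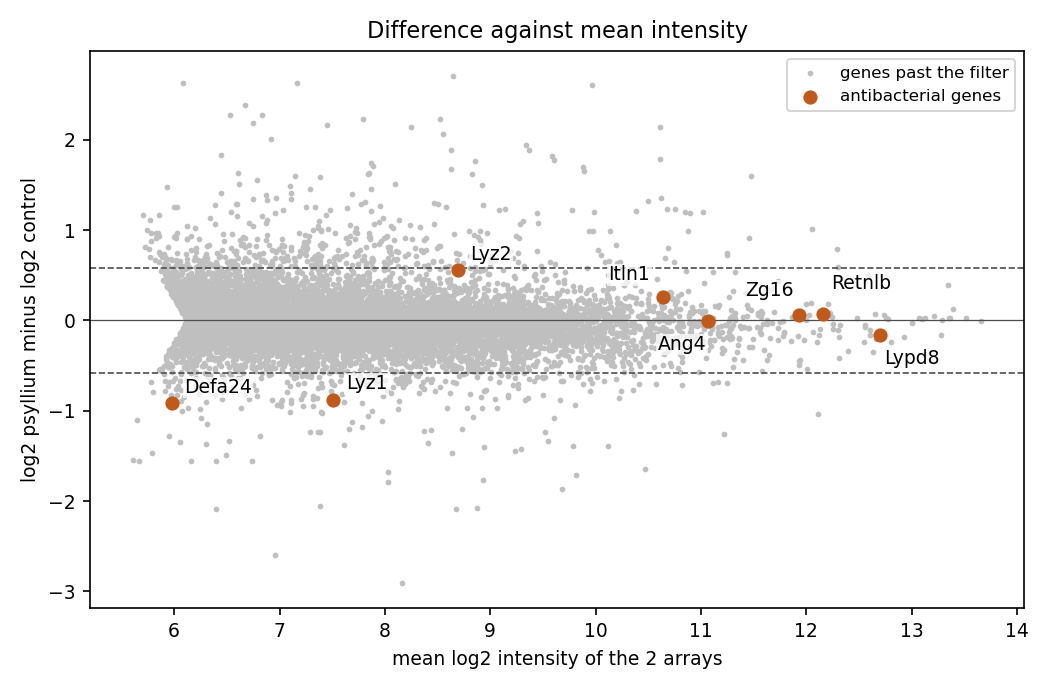
Log2 difference, psyllium minus control, against the mean log2 intensity of the 2 arrays for the 11090 genes past the filter (grey) and the 8 antibacterial genes among them (orange). Dashed lines mark 1.5-fold, with Lyz1 and Defa24 beyond the lower line and Lyz2 just inside the upper line.

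Marker lists for the cell types that supply these proteins were read beside them, and their part in the members' differences was not tested. Beside Lyz1 and Defa24 stood the Paneth list, with 12 of 16 genes measured, 6 below the filter, and a median of 0.05 (0.32 over the 6 past it). Among the 12, the count past 1.5-fold was 1 higher and 0 lower, to be read against the same shares of all genes. The 1 was Cd24a, a surface protein that other crypt cells also carry, with 3850 on the psyllium array and 2043 on the control array (1.88-fold higher). Mmp7, the protease that activates mouse alpha-defensins and a gene chosen after its value was seen, had 155 on the psyllium array and 180 on the control array (-0.21). The rest of the list past the filter were Fgfrl1 (-0.30), Pla2g2a (0.28), Pnliprp2 (0.36) and Nupr1 (0.54).

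Small intestinal enterocyte genes were lower beside Lyz1 and the defensins, and whether either sample held small intestinal tissue was not tested. Differences were negative for all 15, from -1.71 to -0.03, and their median was -0.49. Past 1.5-fold, 5 were lower, 4 of them past the filter, and 0 higher. Of all genes, 2.80% were that much lower. Relative to the pan-epithelial median the list median was -0.22 and 3 were that much lower. Alkaline phosphatase, Alpi, had 498 on the psyllium array and 1635 on the control array (3.28-fold lower), and Apoa4, an apolipoprotein of fat absorption, had 229 on the psyllium array and 529 on the control array (2.31-fold lower). Ada, adenosine deaminase, was 1.83-fold lower and the lectin Reg1 1.75-fold lower, folds that are uncertain because both were below the filter on the psyllium array. Some of these genes are also expressed in colonic epithelium.

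Goblet cell genes leaned higher beside Itln1, Retnlb, Zg16 and Ang4. Of 17 measured 15 had positive differences, with a median of 0.29, so the 4 goblet members, at -0.0035 to 0.26, all lay below that median. The 2 at least 1.5-fold higher were the chemokine Ccl6, with 1361 on the psyllium array and 826 on the control array, and Agr2, a mucin-folding protein, with 6202 on the psyllium array and 4122 on the control array. Among genes past the filter 4.03% were that much higher. Muc2, the main colonic mucin, had 11892 on the psyllium array and 9087 on the control array (0.39). It was named as a tissue check after its value was seen, as was the colonic carbonic anhydrase Car1, with 7791 on the psyllium array and 10100 on the control array. Both were past the filter on either array. Of 14 regulators of the secretory lineage 11 had positive differences, with a median of 0.27 (-0.02 relative to the goblet median). Spdef, which drives goblet cell maturation, was 1.90-fold higher and Creb3l1 1.60-fold higher. They were the 2 regulators at least 1.5-fold higher, against 3.42% of all genes. That count was 1 relative to the goblet median and 6 relative to the pan-epithelial median, so it depends on the scaling. Tcf7l2, the Wnt effector also known as TCF4, acts on Paneth cell defensin genes. It had 220 on the psyllium array and 345 on the control array (1.57-fold lower). Relative to the pan-epithelial median 0 of the 14 regulators were lower by 1.5-fold, so this call depends on the scaling. Its part in the defensin values was not tested.

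Absorptive colonocyte genes, read beside Lypd8, were lower. Their median was -0.56 over 17 measured genes, 8 of which were lower by 1.5-fold or more. Relative to the pan-epithelial median these values were -0.29 and 5. Among genes past the filter 2.42% were lower by 1.5-fold or more. The water channel Aqp8 (6.07-fold), Clca4a (4.23-fold), Clca4b (4.14-fold) and the carbonic anhydrase Car4 (2.68-fold) led the list. Aqp8 was below the filter on the psyllium array, at 50.5, so its fold and rank are uncertain. Lypd8, at -0.16, lay above that median. All 23 pan-epithelial genes, shared by every epithelial cell, had negative differences, with a median of -0.28 and none at 1.5-fold. Lgals4, a galectin, and Krt8, a keratin, differed by -0.18 and -0.03.

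Macrophage genes, read beside Lyz2, leaned higher, with a median of 0.21 that turned to -0.08 relative to the goblet median. Of 19 measured 14 had positive differences, and 2 were at least 1.5-fold higher, against 3.42% of all genes. These were scavenger receptors. Mrc1 had 272 on the psyllium array and 117 on the control array. Cd163 had 93.3 on the psyllium array and 54.5, below the filter, on the control array. Neutrophil genes, read beside Camp, were mostly dim: 15 of 17 measured lay below the filter, among them Mpo, Elane, S100a8 and S100a9, and the median was 0. Ly6g, at 1.51-fold higher, and Lcn2, which epithelium also makes, were past it, Lcn2 on the psyllium array alone. Markers of tissue outside the epithelium were higher on the psyllium array, with medians of 1.20 for 15 smooth muscle genes and 1.21 for 14 matrix and fibroblast genes. Their leading genes were Actg2 (4.42-fold), Synm (3.69-fold), Des (3.45-fold) and Cald1 (3.24-fold), and Fn1 (6.10-fold), Mfap5 (4.86-fold), Lum (4.40-fold) and Col3a1 (3.44-fold). The fold of Mfap5 is uncertain, since its control value of 42.0 was below the filter. Their part in the members' values was not tested.

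**Figure D4:**
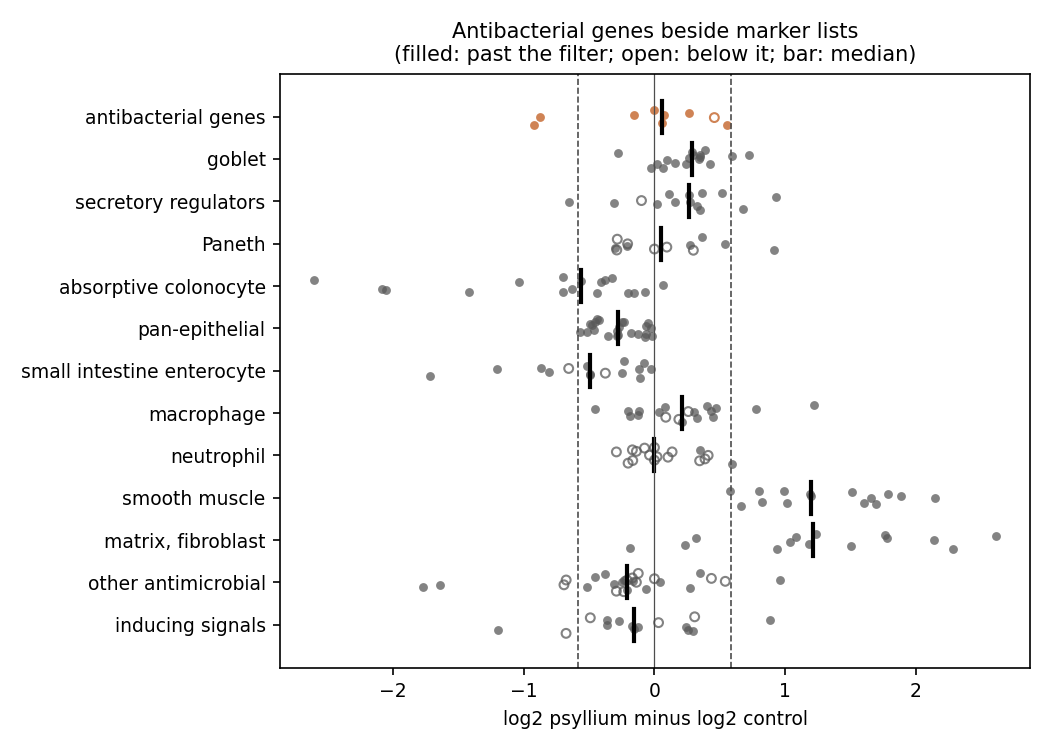
Log2 difference, psyllium minus control, of each measured gene of the antibacterial set and of 12 lists (filled when past the filter, open when below it), with the list median as a bar and 1.5-fold as dashed lines. The antibacterial genes centre on 0.06, between the goblet median of 0.29 and the pan-epithelial median of -0.28, with Lyz1 and Defa24 apart on the left.

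Other mucosal antimicrobial genes, many of them induced by microbes or cytokines, had 19 of 26 negative differences and a median of -0.21. At least 1.5-fold lower were 4, of which 2 were past the filter: Saa3, an acute-phase protein, with 264 on the psyllium array and 899 on the control array, and Reg3g, a lectin against Gram-positive bacteria, with 806 on the psyllium array and 2511 on the control array. Mptx1, a mucosal pentraxin, was the 1 that was higher, with 130 on the psyllium array and 67.0, just below the filter, on the control array (1.95-fold). Of all genes, 2.80% were at least 1.5-fold lower and 3.42% at least 1.5-fold higher. Relative to the pan-epithelial median the median of this list was 0.07, so its direction depends on the scaling.

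Of 15 genes of the cytokine and microbial signals that can induce such proteins, 9 had negative differences, and the median was -0.16 (0.12 relative to the pan-epithelial median). Il18, an epithelial cytokine, had 280 on the psyllium array and 642 on the control array (2.29-fold lower), and Il33, an alarmin, had 159 on the psyllium array and 86.2 on the control array (1.85-fold higher). Il13 and Il22, cytokines known to induce Retnlb and Reg3g in mice, were both below the filter, at 34.3 and 2.5 on the psyllium array and 33.5 and 3.6 on the control array.

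Scaling decided the direction of the members with small differences and not that of Lyz1, Defa24 or Lyz2. Lyz1 stayed between -1.17 and -0.60, Defa24 between -1.21 and -0.64 and Lyz2 between 0.27 and 0.83 over the alternatives. Relative to the pan-epithelial median Lypd8 changed sign, to 0.12, as did Ang4, to 0.27. Ang4 also turned to 0.03 when centred on the genes past the filter or freed of the intensity trend. Relative to the goblet median, a setting chosen after seeing the data, Itln1 came to -0.03, Zg16 to -0.23 and Retnlb to -0.21, each opposite in sign to the reported value.

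**Figure D5:**
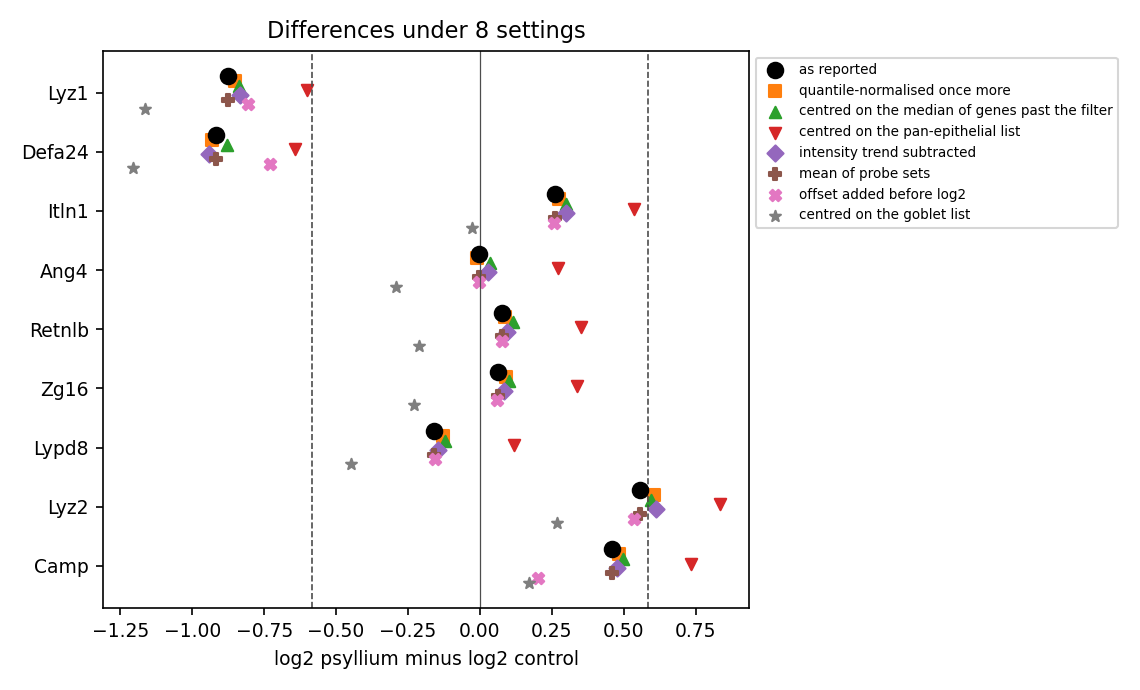
Log2 difference, psyllium minus control, of each of the 9 genes as reported (black) and under the alternatives named in the legend, with 1.5-fold as dashed lines. Lyz1 and Defa24 lie beyond the lower line under every setting, down to -1.17 and -1.21, whereas centring on the pan-epithelial or goblet list moves all genes by a constant.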

How the data were processed

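The authors deposited 1 normalised intensity for each probe set, not on a log scale. The submitters' processing notes list RMA and Affymetrix Expression Console with no version, whereas the annotation and genome build are not given in the sources used here. The intensities, from 1.76 to 13841 (psyllium) and from 1.92 to 13675 (control), were converted to log2 without a pseudocount. The number of arrays limits the precision. Gene names follow the platform annotation held by GEO, and symbols were updated by gene number through RefSeq, GRCm38.p6 (23328 of 23521 probe sets naming 1 gene matched). Another 1814 probe sets name several genes and 16010 name none here. Of several probe sets of a gene, the brightest was used. Counting used 1.5-fold. The text names, from each list, the 4 genes furthest from 0 among those past both the filter and 1.5-fold (fewer where fewer qualified, and the 2 with the highest signal where none did), and all relatives of the members past the filter. The Paneth list genes past the filter are also all named. The members and lists were chosen with earlier results of these data known. The code of the counting step was tested on simulated data, which gives no measure of replicate error. Alternatives were further quantile normalisation, 3 kinds of centring, removal of the intensity trend (lowess span 0.3), the mean of probe sets, an offset of 16 before log2, other fold sizes and no filter. Python 3.11.15, pandas 2.3.3 and statsmodels 0.14.6 were used.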

Additional observations from a re-analysis of the deposited data

How the results depend on the processing

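The count of members at least 1.5-fold lower was 2 under every alternative run except a 2-fold threshold, where it was 0. The count at least 1.5-fold higher was 0 as reported and 1, Lyz2, after further quantile normalisation, after centring on the genes past the filter or on the pan-epithelial list, after removal of the intensity trend, and at a fold threshold under 1.5. The median difference of the members, 0.06 as reported, was 0.34 relative to the pan-epithelial list and -0.23 relative to the goblet list, a setting chosen after seeing the data. Its mean was -0.06. Those settings shift every gene by a constant, 0.28 upwards and 0.29 downwards. The mean of probe sets repeats the reported value of each member, since each has 1 probe set, and adds no check. The offset of 16 brought Camp to 0.20 and Defa24 to -0.73. No replicate could be left out, with 1 array per diet. No paired analysis was possible because each diet has 1 array. Signal limits Camp, Defa24 and most alpha-defensin probe sets, which are dim on at least 1 array.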
